A study of Sus scrofa with 6 samples.

Results

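This account covers the genes of programmed cell death and of the p53 pathway in porcine skeletal muscle stem cells (satellite cells, PSCs) in culture, compared between an earlier and a later stage of differentiation into myotubes. The set was drawn up with earlier results of these data known, and its rows were found by gene symbol. It held 57 genes of the BCL2 family, the caspases, the inhibitor of apoptosis (IAP) proteins, the death receptors with their adaptors, and the p53 regulators and targets. Of the 57 genes, 35 had a row in the deposited table of 28266 rows through the symbol of their pig Ensembl identifier, and 31 of these passed the filter on low values and were tested. Of the 28266 rows, 11804 could be paired with a symbol. The filter on low values, applied to rows with and without a symbol, left 14060 rows for testing.

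The 6 libraries formed groups NC24h and NC36h with 3 libraries each, numbered 4, 5 and 6. All were Yorkshire satellite cells from skeletal muscle, which the study's methods trace to the limb muscles of 3-day-old male pigs, grown on Matrigel and differentiated in medium with horse serum. The sample labels give no siRNA treatment, but the N of the sample titles was read as the study's negative control (NC) siRNA, in which case neither group is an untransfected culture. The libraries with siRNA against H19 were not analysed here. NC24h was taken at 24 h of differentiation, whereas NC36h was taken at 36 h by the series title and the study's methods and at 48 h by the sample labels. The label for RNA extraction named endometrium, which goes against the tissue label. No label said whether the 3 libraries of a group came from separate cultures or animals, so p-values here measure only the spread between these libraries, which may be technical.

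Apoptosis runs along a mitochondrial and a death receptor route. In the mitochondrial route, BH3-only proteins such as BAD, BID, BBC3 (PUMA) and PMAIP1 (NOXA) neutralise anti-apoptotic BCL2 proteins or activate BAX and BAK1, which open the outer mitochondrial membrane, and released cytochrome c then assembles with APAF1 and CASP9 into the apoptosome. In the receptor route, ligand-bound receptors of the TNF receptor superfamily recruit adaptors and CASP8, while IAP proteins such as XIAP restrain caspases. The p53 pathway, held down by MDM2 and MDM4, switches on several of these genes. In skeletal muscle, some caspases and BH3-only genes are known to be active during myoblast differentiation as well as in cell death.

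Expression was given as FPKM, the fragments per kilobase of transcript scaled to library size, a level that is corrected for gene length and library depth. The libraries held between 16250222 and 21723087 fragments in the table, and 1 fragment on a gene of 1 kb was worth 0.0457 to 0.0610 FPKM. Libraries of the same group correlated at r = 0.972 to 0.994 across genes and libraries of different groups at 0.910 to 0.962. The muscle identity of the cells was checked with DES, the muscle intermediate filament, at 1452 to 3367 FPKM and with MYOD1, a myogenic transcription factor, at 246.0 to 386.4 FPKM. The leukocyte marker PTPRC and the endothelial marker KDR were listed at 0 in all 6 libraries, and the fibroblast marker PDGFRA lay between 0.0188 and 0.680 FPKM. Other markers of the same lists were measured, with COL3A1 (fibroblasts) at 200.7 to 527.2 FPKM, CD14 (leukocytes) at 1.003 to 3.289 FPKM and PECAM1 (endothelium) at 1.015 to 1.674 FPKM. ACTA2, of the pericyte and smooth muscle list, was at 852.7 to 1091 FPKM. Whether other cell types were present was not tested. In bulk libraries such as these, fewer cells of a type and less RNA per cell cannot be told apart.

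On the FPKM scale, genes of the core caspase machinery, of the IAP proteins and of death receptor signalling were mostly lower at NC36h than at NC24h. By contrast, 3 of the 4 measured BH3-only genes were higher. After the rescaling described below, 3 of the 7 genes tested in the death receptor list were called lower and 1 higher. Among the 31 genes tested, the widest fall in mean FPKM was that of the kinase DAPK1, a gene of low level, at 2.90-fold. The death receptor TNFRSF21, at 2.63-fold, and the initiator caspase CASP2, at 2.11-fold, came next. The widest rises among the genes tested were those of BBC3, at 2.1-fold, and of the p53-inducible protein TP53INP2, at 1.73-fold. Of the 31 genes, 19 passed the threshold (limma on log2(FPKM + 1), Benjamini-Hochberg adjusted p under 0.05), 4 of them higher and 15 lower at NC36h. That is 61.3% of the genes, with 12.9% higher and 48.4% lower, against 50.9% of all genes tested, with 16.5% higher and 34.4% lower. The 3 libraries of one group lay entirely on one side of the other group for 23 of the 31 genes, or 74.2%, against 63.6% of all genes. In all 7156 of the genes tested moved between the groups, and the shares of these genes are to be read against that background.

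The median log2 change of the 31 genes was -0.25, with 22 genes below 0 and 9 above. Over all genes tested the median was -0.16, with 63.7% of the genes at or below 0. After the libraries were rescaled by the median ratio of their genes, the median over all genes was -0.00 and that of the 31 genes -0.09. On this scale 23.9% of all genes were called higher and 22.2% lower, and 7 of the 31 genes were higher and 9 lower. Of the 19 calls, 13 were kept after this scaling. The split into higher and lower genes thus differed between the scales, while BAD, BID and BBC3 were called higher and CASP2, CASP6 and CASP9 lower on both. In the plot of log2 change by role, 3 of the 4 BH3-only genes and TP53INP2 lie to the right of 0 and most caspases, IAP proteins and receptors to the left.

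**Figure D1:**
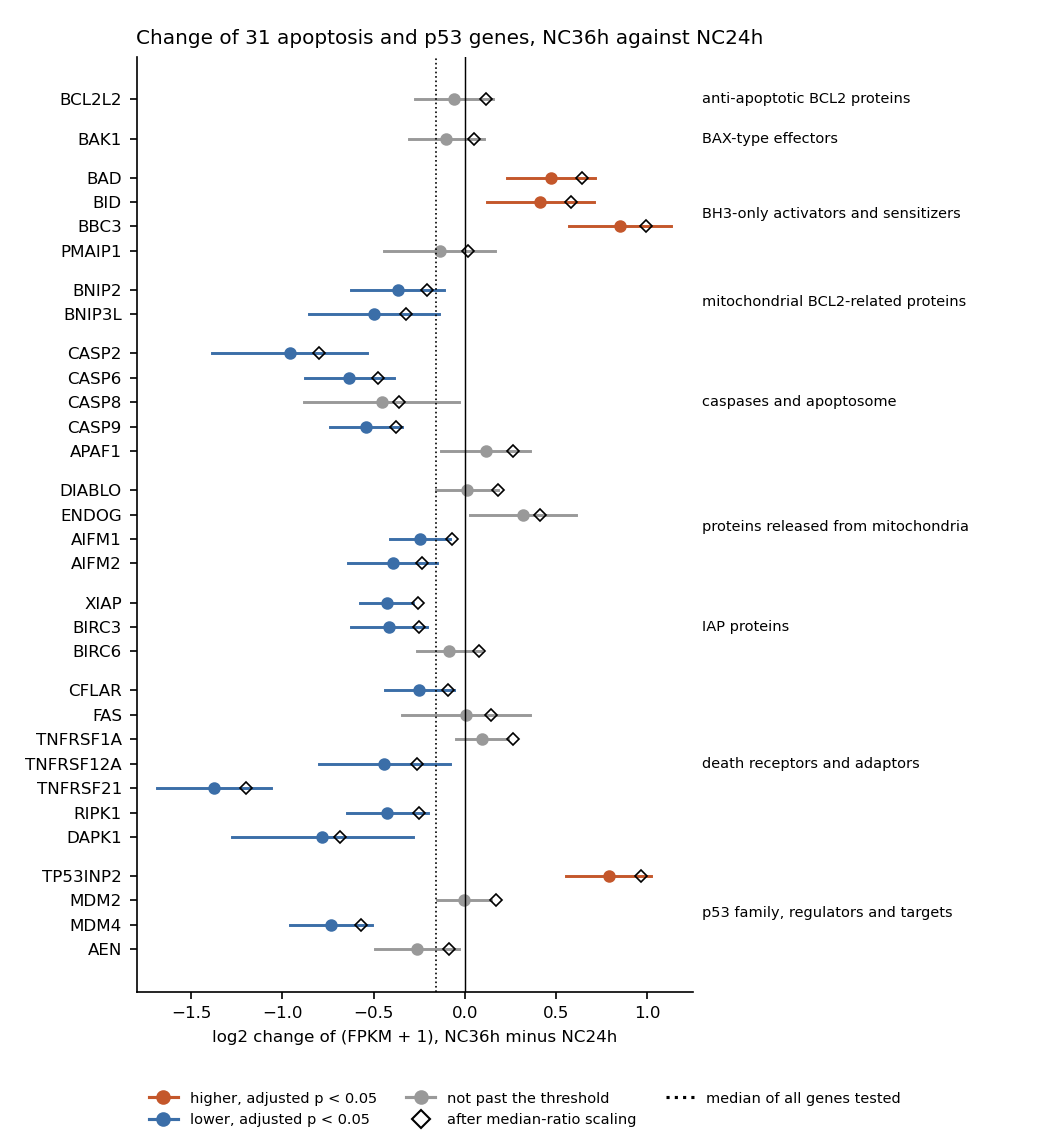
Log2 change of (FPKM + 1), NC36h minus NC24h, for the 31 genes tested, grouped by role, with points for the change, bars for the 95% confidence interval, diamonds for the change after median-ratio scaling and a dotted line at the median of all genes tested (-0.16). BBC3 (0.85), TP53INP2 (0.79), BAD (0.47) and BID (0.41) are the 4 genes past the threshold on the right, and TNFRSF21 (-1.38) and CASP2 (-0.96) lie farthest to the left.

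**Figure D2:**
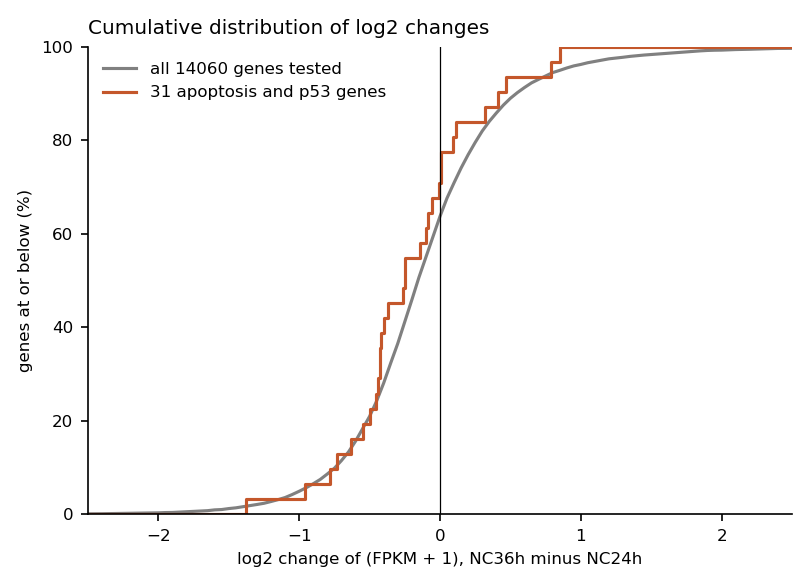
Share of genes at or below a given log2 change of (FPKM + 1), NC36h minus NC24h, in percent, for all 14060 genes tested (grey) and for the 31 apoptosis and p53 genes (orange steps). Near the middle the orange steps lie to the left of the grey line (medians -0.25 and -0.16), and in both tails the lines run close together.

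Among the BH3-only proteins, the sensors that start the mitochondrial route, 3 of 4 tested genes rose and none fell. Over all genes tested, 16.5% were higher and 34.4% lower. BBC3, which encodes PUMA and is a classical p53 target, was at 2.65, 2.66 and 3.08 FPKM in NC24h replicates 4, 5 and 6 and at 5.01, 5.89 and 6.70 FPKM in NC36h. The groups did not overlap, and the log2 change was 0.85 ± 0.12 (SE, adjusted p = 0.0021 with limma), with a lower bound of 0.57 and an upper bound of 1.13 for the 95% confidence interval. It was a gene of low level, with 837 fragments over the 6 libraries, so that its change in mean FPKM (2.1-fold) is larger than the fitted change, which the added 1 pulls toward 0. BAD, whose product binds and blocks anti-apoptotic BCL2 proteins when it is not phosphorylated, was at 17.4, 15.5 and 20.0 FPKM in NC24h and at 23.2, 26.1 and 24.9 FPKM in NC36h. All 3 later libraries were above all earlier ones, with a log2 change of 0.47 ± 0.10 and an adjusted p of 0.0093 with limma. BID, the protein that caspase-8 cuts to link the receptor route to mitochondria, was at 28.7, 21.7 and 20.8 FPKM in NC24h and at 30.8, 30.9 and 33.1 FPKM in NC36h. NC24h replicate 4 came close to the later libraries, and the log2 change was 0.41 ± 0.12 with an adjusted p of 0.0286 with limma. The BID call was lost in 5 of the fits that left out 1 library, each of them except that without NC24h replicate 4, with adjusted p up to 0.0923.

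PMAIP1, which encodes NOXA, the partner that removes the anti-apoptotic protein MCL1, did not pass the threshold. Its levels were 9.90, 9.58 and 7.44 FPKM in NC24h and 9.07, 7.41 and 7.61 FPKM in NC36h, and the 95% confidence interval of its log2 change ran from -0.44 to 0.16. The summed level of the 4 BH3-only genes was 49.4 to 58.6 FPKM in the NC24h libraries and 68.1 to 72.3 FPKM in the NC36h libraries, with no overlap. BID and BAD carried most of that sum.

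The guardians and effectors that BH3-only proteins act on were represented by 1 gene each. BAK1, a pore-forming effector of the outer mitochondrial membrane, was at 5.30, 6.17 and 6.14 FPKM in NC24h and at 5.19, 5.48 and 5.51 FPKM in NC36h. The groups overlapped, the log2 change was -0.10 ± 0.09 with an adjusted p of 0.359 with limma, and its sign turned after median-ratio scaling (0.05) and after quantile normalization (0.09). BCL2L2, which encodes the survival protein BCL-W, was at 150.1, 165.9 and 180.5 FPKM in NC24h and at 164.3, 145.6 and 165.6 FPKM in NC36h. Its 95% confidence interval ran from -0.28 to 0.16 on the log2 scale. In mammals BCL2L2 lies beside PABPN1 with read-through transcripts known between them, and whether this row counted only BCL2L2 fragments was not tested.

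BNIP2 and BNIP3L, a pair of BCL2-interacting proteins, both fell, as did 34.4% of all genes tested. BNIP3L, also called NIX, which marks mitochondria for removal by autophagy, was at 43.1, 46.7 and 62.5 FPKM in NC24h and at 31.8, 34.7 and 39.6 FPKM in NC36h. Its NC24h replicate 6 stood well above the other 5 libraries, and the log2 change was -0.50 ± 0.15 with an adjusted p of 0.0304 with limma. BNIP2, a scaffold protein that binds BCL2 and has been tied to myoblast differentiation, was at 11.8, 10.2 and 11.04 FPKM in NC24h and at 9.14, 8.72 and 7.11 FPKM in NC36h, a log2 change of -0.37 ± 0.11 with an adjusted p of 0.0272 with limma. Neither call stood after median-ratio scaling, where the adjusted p was 0.0941 for BNIP3L and 0.157 for BNIP2. BNIP3L also lost the call without NC24h replicate 5 or NC36h replicate 4 or 5. BNIP2 also lost it without NC24h replicate 4 or NC36h replicate 5 or 6 and after quantile normalization (adjusted p = 0.178 with limma).

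The caspases are the proteases of the pathway, and 3 of the 4 caspase genes tested fell while none rose. The shares over all genes tested were 34.4% lower and 16.5% higher. CASP2, an initiator caspase that responds to DNA damage and to extra centrosomes, was at 13.4, 16.2 and 23.2 FPKM in NC24h and at 8.40, 8.22 and 8.37 FPKM in NC36h. The 3 later libraries were almost equal, and the earlier ones were spread widely with replicate 6 highest. The log2 change was -0.96 ± 0.18 with an adjusted p of 0.0054 with limma. CASP6, an executioner caspase that cuts nuclear lamins, was at 10.04, 9.92 and 10.5 FPKM in NC24h and at 7.25, 5.77 and 5.65 FPKM in NC36h, a log2 change of -0.63 ± 0.10 with an adjusted p of 0.0034 with limma. CASP9, the initiator caspase of the apoptosome, was at 17.2, 17.8 and 14.9 FPKM in NC24h and at 11.13, 10.82 and 11.33 FPKM in NC36h. All later libraries lay below all earlier ones, with a log2 change of -0.54 ± 0.08 and an adjusted p of 0.0028 with limma. For CASP9, NC24h replicate 6 was the lowest of its group, opposite to its place in CASP2.

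CASP8, the initiator caspase of the death receptors, was at 1.08, 1.34 and 2.08 FPKM in NC24h and at 0.986, 0.729 and 0.683 FPKM in NC36h. The groups did not overlap, but the log2 change of -0.46 ± 0.18 missed the threshold with an adjusted p of 0.0694 with limma. The gene held only 270 fragments over the 6 libraries, and it passed in 2 of 13 alternatives, when voom was run on whole fragments, at 0.0440, and when the library NC24h replicate 4 was left out, at 0.0420. Without NC24h replicate 6 its log2 change was -0.30, with an adjusted p of 0.116 with limma. APAF1, the scaffold of the apoptosome, was at 4.72, 4.63 and 5.86 FPKM in NC24h and at 5.59, 5.36 and 5.68 FPKM in NC36h, with overlapping groups and an interval of -0.13 to 0.36 on the log2 scale. On the median-ratio scale APAF1 was called higher (log2 change 0.26, adjusted p = 0.0473 with limma). The summed level of the 5 caspases with a row and APAF1 was 46.5, 49.96 and 56.6 FPKM in NC24h and 33.4, 30.9 and 31.7 FPKM in NC36h.

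**Figure D3:**
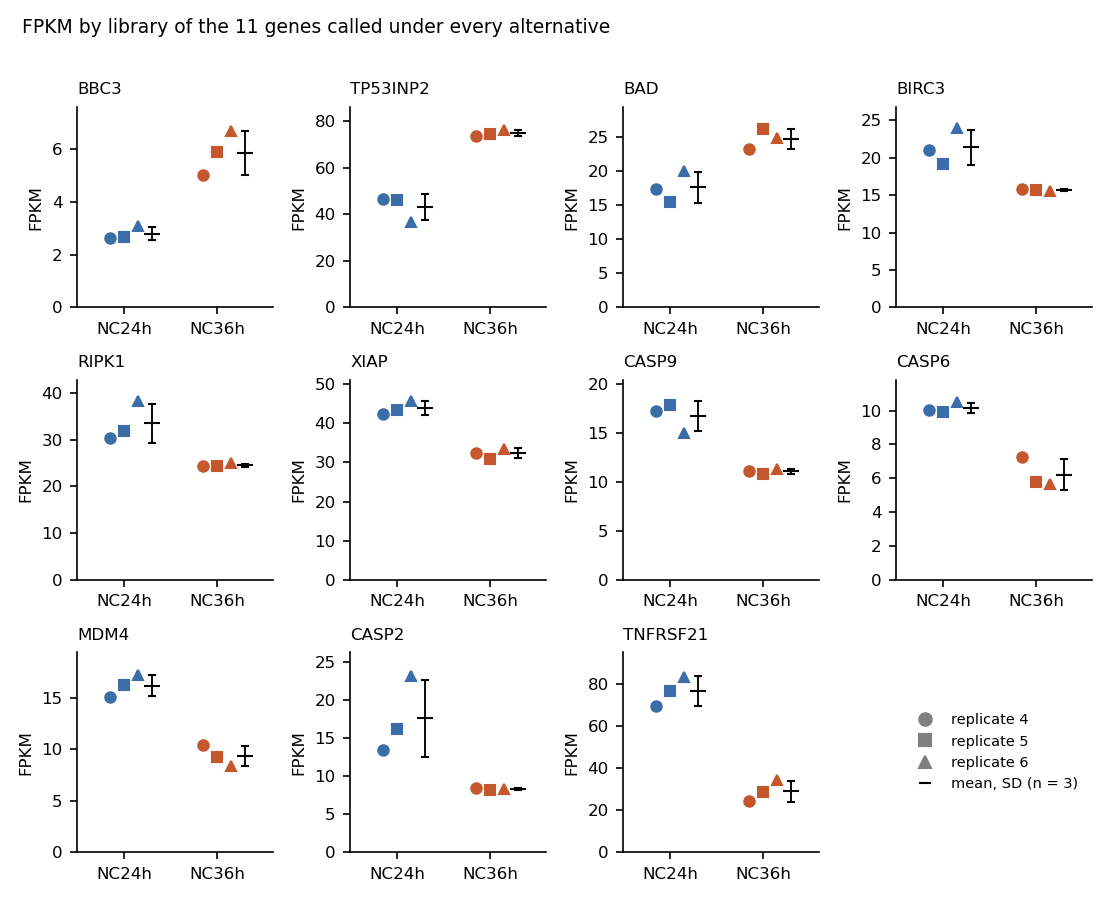
FPKM in each library for the 11 genes that passed the threshold in the main fit and in every alternative in which they were tested, with NC24h in blue, NC36h in orange, symbols for the replicate number and bars for the mean and SD of 3 libraries. In each panel the 3 libraries of one group lie apart from those of the other, and the NC24h libraries of CASP2 are spread from 13.4 to 23.2 FPKM.

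The IAP proteins hold caspases in check, and 2 of the 3 genes tested fell, beside 34.4% of all genes tested. XIAP, which binds and inhibits caspase-9 and the executioner caspases directly, was at 42.4, 43.4 and 45.8 FPKM in NC24h and at 32.4, 30.96 and 33.5 FPKM in NC36h. The gap between the groups was wider than the range within either, and the log2 change was -0.43 ± 0.06 with an adjusted p of 0.0024 with limma. BIRC3 (cIAP2), a ubiquitin ligase of TNF receptor complexes, was at 21.01, 19.2 and 23.9 FPKM in NC24h and at 15.9, 15.7 and 15.6 FPKM in NC36h, a log2 change of -0.42 ± 0.09 with an adjusted p of 0.0082 with limma. BIRC6, a very large ubiquitin-conjugating IAP, was at 14.7 to 15.0 FPKM in NC24h and 12.9 to 15.0 FPKM in NC36h, and the interval of its log2 change ran from -0.26 to 0.09. The summed level of the 3 genes was 77.4 to 84.8 FPKM in NC24h and 60.9 to 63.3 FPKM in NC36h.

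The genes listed as proteins released from mitochondria did not move together. AIFM1, a flavoprotein of the intermembrane space that also supports the respiratory chain, was at 46.2, 47.7 and 46.0 FPKM in NC24h and at 42.5, 38.3 and 36.9 FPKM in NC36h. It fell by 0.25 ± 0.07 on the log2 scale with an adjusted p of 0.0246 with limma. AIFM2, known as the ferroptosis suppressor FSP1, was at 10.96, 11.14 and 13.9 FPKM in NC24h and at 9.19, 8.90 and 8.41 FPKM in NC36h, a log2 change of -0.40 ± 0.10 with an adjusted p of 0.0179 with limma. Both calls were lost after median-ratio scaling, with log2 changes of -0.07 and -0.23, and without NC36h replicate 5 or 6. That of AIFM1 was also lost without NC24h replicate 4 or 5. That of AIFM2 was also lost after quantile normalization (adjusted p = 0.0661 with limma). DIABLO (SMAC), the antagonist of IAP proteins, was at 27.5 to 30.5 FPKM in NC24h and 28.3 to 31.4 FPKM in NC36h, and the interval of its log2 change ran from -0.16 to 0.18. ENDOG, a mitochondrial nuclease, was at 0.853, 0.762 and 1.08 FPKM in NC24h and at 1.31, 1.39 and 1.39 FPKM in NC36h. Its groups did not overlap, yet the log2 change of 0.32 ± 0.12 missed the threshold (adjusted p = 0.0654 with limma), which it passed in 6 of the 13 alternatives in which it was tested.

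In the list of death receptors and adaptors, which includes the kinase DAPK1, 5 of 7 genes tested fell and none rose. Over all genes tested, 34.4% were lower and 16.5% higher. After median-ratio scaling 3 of the 7 were called lower and 1 higher, beside 22.2% and 23.9% of all genes. TNFRSF21 (DR6), a receptor with a cytoplasmic death domain, was at 69.7, 76.8 and 83.7 FPKM in NC24h and at 24.4, 28.8 and 34.3 FPKM in NC36h. The lowest earlier library was above the highest later one by more than the range of either group, and the log2 change was -1.38 ± 0.13 with an adjusted p of 0.0009 with limma. Only 1.66% of all genes tested had a lower log2 change. DAPK1, a calcium/calmodulin-regulated death-associated kinase, was at 1.28, 1.67 and 2.83 FPKM in NC24h and at 0.724, 0.768 and 0.505 FPKM in NC36h, a log2 change of -0.78 ± 0.21 with an adjusted p of 0.0197 with limma. With 390 fragments in all it was a gene of low level, and it lost the call without NC36h replicate 4, 5 or 6 (adjusted p up to 0.0608). RIPK1, the kinase that decides between survival and death signalling at TNF receptor complexes, was at 30.3, 32.0 and 38.3 FPKM in NC24h and at 24.4, 24.4 and 24.95 FPKM in NC36h. All later libraries lay below all earlier ones, with a log2 change of -0.43 ± 0.09 and an adjusted p of 0.0094 with limma.

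TNFRSF12A (FN14), the receptor of the cytokine TWEAK, which lacks a death domain and is well known in regenerating muscle, had the highest level of the set. It was at 277.9, 266.2 and 304.8 FPKM in NC24h and at 171.2, 201.4 and 260.2 FPKM in NC36h. NC36h replicate 6 came close to the lowest NC24h library, and the log2 change of -0.44 ± 0.15 passed narrowly with an adjusted p of 0.0463 with limma. The call was lost in 8 of the 14 alternatives, 5 of which left out 1 library: NC24h replicate 4, 5 or 6 or NC36h replicate 4 or 5. CFLAR (c-FLIP), the catalytically dead relative of caspase-8 that blocks receptor signalling, was at 8.01, 7.06 and 7.16 FPKM in NC24h and at 5.996, 6.266 and 5.945 FPKM in NC36h. It fell by 0.25 ± 0.08 on the log2 scale (adjusted p = 0.0377 with limma) and lost the call in 9 alternatives, among them each fit without 1 library except that without NC24h replicate 6. FAS, the CD95 receptor, was at 2.89 to 4.475 FPKM in NC24h and 3.12 to 3.798 FPKM in NC36h, with an interval of -0.35 to 0.36. TNFRSF1A, the main receptor of TNF, was at 24.95 to 26.24 FPKM in NC24h and 26.4 to 28.4 FPKM in NC36h. Its groups did not overlap, its log2 change of 0.09 ± 0.06 missed the threshold (adjusted p = 0.233 with limma), and after median-ratio scaling it was called higher at 0.26 (adjusted p = 0.0186 with limma).

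Of the 4 p53 regulators and targets tested, 1 rose and 1 fell, beside 16.5% and 34.4% of all genes tested. TP53INP2 (DOR), a nuclear coactivator and autophagy factor that is abundant in muscle, was at 46.7, 46.2 and 36.8 FPKM in NC24h and at 73.9, 74.7 and 76.4 FPKM in NC36h. The later libraries lay close to each other and far above the earlier ones, with a log2 change of 0.79 ± 0.10 and an adjusted p of 0.0016 with limma. MDM4, which binds p53 and blocks its transactivation domain, was at 15.1, 16.26 and 17.2 FPKM in NC24h and at 10.4, 9.27 and 8.41 FPKM in NC36h, a log2 change of -0.73 ± 0.10 with an adjusted p of 0.0018 with limma. MDM2, the ubiquitin ligase that targets p53 for degradation and is itself a p53 target, was at 35.1, 34.6 and 35.8 FPKM in NC24h and at 37.2, 33.8 and 34.2 FPKM in NC36h. The groups overlapped, with a log2 change of -0.00 ± 0.06, an adjusted p of 0.953 with limma and an interval of -0.15 to 0.14, and the sign was positive after median-ratio scaling (0.17) and quantile normalization (0.05). AEN, a p53-induced nuclease, was at 36.1, 39.0 and 45.8 FPKM in NC24h and at 33.6, 31.6 and 34.6 FPKM in NC36h. Its groups did not overlap, and its adjusted p of 0.0579 with limma lay just outside the threshold.

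The heat map of the genes by library shows the same values relative to the earlier group. Of the 19 genes called, 11 stayed past the threshold in every alternative in which they were tested. They were BBC3, TP53INP2 and BAD, which were higher, and TNFRSF21, CASP2, MDM4, CASP6, CASP9, XIAP, RIPK1 and BIRC3, which were lower.

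**Figure D4:**
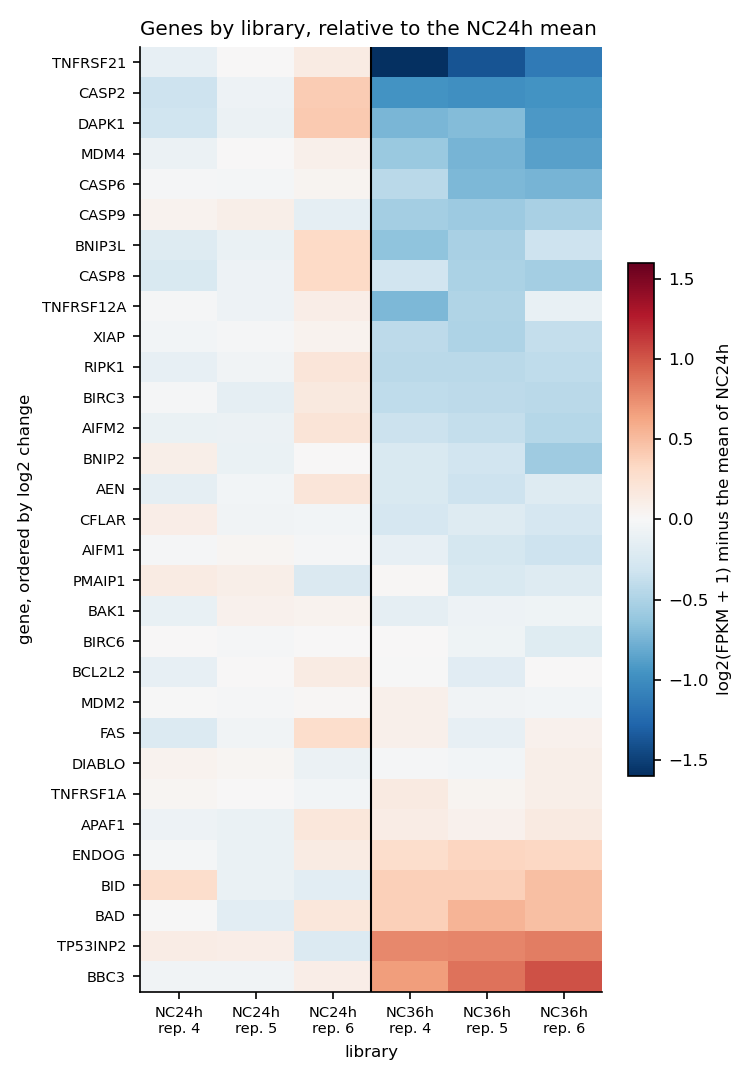
Log2(FPKM + 1) of the 31 genes tested in each of the 6 libraries, minus the mean of the NC24h libraries, ordered by log2 change, with red for higher and blue for lower values and a line between the groups. The right side is blue for TNFRSF21, CASP2, DAPK1 and MDM4 and red for BBC3, TP53INP2, BAD and BID, and NC24h replicate 6 is redder than the rest of its group for CASP2, DAPK1, BNIP3L and CASP8.

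NC24h replicate 6 stood apart from the other libraries of its group for many of these genes. It held the highest value of its group in 20 of the 31 genes, or 64.5%, against 50.5% of all genes tested. It also did so in 11 of the 15 genes that fell, but the share among all genes that fell was not computed. The summed level of 11 cell cycle genes was 71.3, 95.4 and 185.2 FPKM in NC24h replicates 4, 5 and 6 and 32.4, 28.8 and 36.7 FPKM in NC36h, and 8 of the 11 fell. The summed level of 5 genes of the contractile apparatus was 2996, 2413 and 1022 FPKM in NC24h and 9283, 9048 and 7620 FPKM in NC36h, and 4 of the 5 rose. NC24h replicate 6 thus had the highest cell cycle level and the lowest contractile level of all libraries, and the part of either in the values of the apoptosis genes was not tested. Without that library 4 of the 31 genes were higher and 14 lower, with a median log2 change of -0.26. Of the 19 calls 17 were kept, and BID and TNFRSF12A were lost. Over all genes tested the same fit called 7336 (52.2%), 2440 higher and 4896 lower, with a median log2 change of -0.14.

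Markers of other cell types moved in both directions with the contrast. The fibroblast list summed to 228.7 to 297.8 FPKM in NC24h and 395.9 to 535.8 FPKM in NC36h, nearly all of it COL3A1, which rose by 0.88 on the log2 scale, while DCN (-1.48) and LUM (-1.19) fell and PDGFRA was at most 0.680 FPKM. The endothelial list summed to 1.02 to 1.67 FPKM in the 6 libraries, with KDR at 0 throughout. The leukocyte list summed to 4.63 to 5.89 FPKM in NC24h and 2.05 to 3.37 FPKM in NC36h, with PTPRC at 0 throughout and CD14 lower by a log2 change of -0.71. Pericyte and smooth muscle genes summed to 857 to 1096 FPKM in NC24h and 930.4 to 1042 FPKM in NC36h, of which ACTA2 made up nearly all, while PDGFRB rose by 0.90 and CSPG4 fell by 0.65 on the log2 scale and MYH11 was at or near 0. The only measured adipocyte marker, PLIN1, was at most 0.0773 FPKM. The part of other cell types in the values of the apoptosis genes was not tested.

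**Figure D5:**
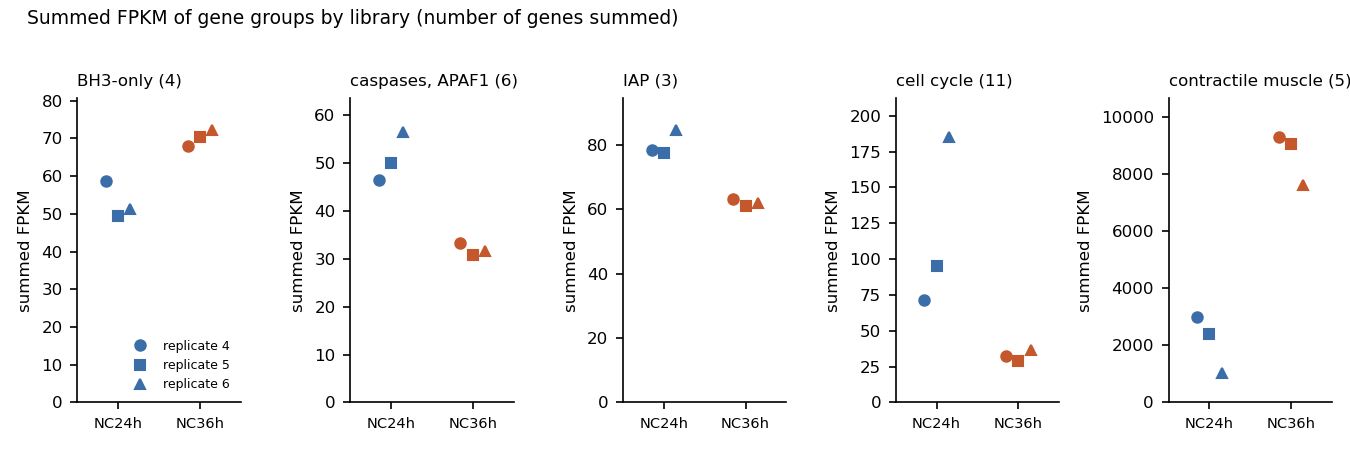
Summed FPKM by library for the BH3-only genes, the caspases with APAF1, the IAP genes, the cell cycle genes and the contractile muscle genes, with the number of genes summed in brackets, NC24h in blue and NC36h in orange. NC24h and NC36h are apart in every panel, and NC24h replicate 6 (triangle) has the highest cell cycle sum (185.2 FPKM) and the lowest contractile sum (1022 FPKM).

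In order of mean FPKM over the 6 libraries, the set ran from TNFRSF12A (246.9 FPKM) and BCL2L2 (162.0 FPKM) through TP53INP2 (59.1 FPKM) and TNFRSF21 (52.9 FPKM) down to DAPK1 (1.296 FPKM), CASP8 (1.15 FPKM) and ENDOG (1.13 FPKM). Of the 30 pairs of neighbours in this order, 26 overlapped in their library values. The 4 steps without overlap lay between BCL2L2 and TP53INP2, MDM2 and DIABLO, BIRC3 and BIRC6, and FAS and DAPK1. TNFRSF12A stood above 97.6% of all genes tested and ENDOG above 2.14%. Genes of the same role were spread along the order, with the receptors TNFRSF12A at its head and FAS near its end.

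The remaining 4 genes with a row stayed under the filter of a mean of 1 FPKM. RIPK3, the kinase of necroptosis, was at 0.325, 0.637 and 1.27 FPKM in NC24h, with 67 fragments, and at 0.2375, 0.1504 and 0.1523 FPKM in NC36h, with 20 fragments. Its groups did not overlap, but it was not tested in the main fit. TP73, a p53 relative, held 14 fragments over the 6 libraries. TP63, its other relative, was at 0 in the NC24h libraries and held 6 fragments in all in NC36h, at most 3 in a library, which a count of 0 also allows. CASP1, the inflammatory caspase, was listed at 0 in 5 libraries and at 0.0355 FPKM in NC36h replicate 4. For the other 22 genes no row carried the symbol, and they were not analysed here: BCL2, BCL2L1, MCL1, BCL2A1, BAX, BOK, BCL2L11, BIK, BMF, HRK, BCL2L13, BNIP3, CASP4, HTRA2, BIRC2, FADD, TNFRSF10B, TRADD, TP53INP1, PERP, ZMAT3 and PHLDA3. The anti-apoptotic side of the BCL2 family was thus seen through BCL2L2 alone.

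The genes that stayed called in every alternative are placed here by RefSeq's annotation of the pig genome Sscrofa11.1, matched on the symbol, since the table itself gave no positions. The higher ones were BAD (ENSSSCG00000013033) on chromosome 2 from 7831192 to 7842864, BBC3 (ENSSSCG00000003112) on chromosome 6 from 53037103 to 53046902 and TP53INP2 (ENSSSCG00000022099) on chromosome 17 from 38104189 to 38113167. Of the lower ones, CASP2 (ENSSSCG00000016464) lies on chromosome 18 from 6946432 to 6966088, CASP6 (ENSSSCG00000009140) on chromosome 8 from 112519450 to 112534315 and CASP9 (ENSSSCG00000003460) on chromosome 6 from 74707597 to 74730033. TNFRSF21 (ENSSSCG00000001727) and RIPK1 (ENSSSCG00000001009) both lie on chromosome 7, from 42020219 to 42091521 and from 1841143 to 1880705. MDM4 (ENSSSCG00000015284) and BIRC3 (ENSSSCG00000027529) both lie on chromosome 9, from 65175488 to 65219747 and from 33003570 to 33020252, and XIAP (ENSSSCG00000025028) lies on chromosome X from 101399374 to 101440021. The values cover all exons of a gene together, so no isoform was separated. In this annotation CASP9 overlaps CELA2A, APAF1 overlaps IKBIP, ENDOG overlaps SPOUT1 and TNFRSF1A overlaps PLEKHG6, and AIFM2 and DAPK1 overlap protein-coding genes without a name. BAK1, BAD, BID, DAPK1 and XIAP overlap long non-coding RNAs, and XIAP and BIRC6 overlap pseudogenes. The strand setting of the counting is not given in the sources used here, so fragments of such overlapping genes cannot be told apart.

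Beyond these genes, 2 wider lists of the same pathways were read from the same fit. Of 45 other p53 pathway genes, 30 were tested, 2 of them higher and 11 lower at NC36h, with a median log2 change of -0.21. Of 56 other apoptosis genes, 24 were tested, 5 of them higher and 9 lower, with a median log2 change of -0.15. Together 27 of 54 genes were called, or 50%, which is close to the 50.9% of all genes, and 19 of the 27 calls were kept after median-ratio scaling. CDKN1A, the classical p53 target that halts the cell cycle, was listed at 0 in 4 libraries and at 0.0645 and 0.128 FPKM in NC24h replicates 5 and 6. The gene models may be of an older annotation, and whether this row covers the whole transcript was not tested. Its values therefore do not show that the gene was silent.

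Of the p53 targets, SESN2, a stress-induced inhibitor of mTORC1, was at 5.61, 5.79 and 6.74 FPKM in NC24h and at 9.03, 8.12 and 9.13 FPKM in NC36h, a log2 change of 0.47 ± 0.09 with an adjusted p of 0.0067 with limma. FDXR, the mitochondrial ferredoxin reductase, was at 3.09, 3.30 and 3.08 FPKM in NC24h and at 4.06, 3.71 and 4.29 FPKM in NC36h. It rose by 0.27 ± 0.09 (adjusted p = 0.0437 with limma). This call was lost in each fit without 1 library, with no filter on low values and with the replicate number as a block. THBS1, the matrix protein thrombospondin 1, was at 351.8, 371.2 and 561.4 FPKM in NC24h and at 127.5, 139.8 and 234.1 FPKM in NC36h, and its log2 change was -1.37 ± 0.27 (adjusted p = 0.0065 with limma). Because the genes described were the largest rises and falls of the list, the presence of both directions was set by that choice. Of the 30 genes tested, 24 had a log2 change below 0, beside 63.7% of all genes tested at or below 0. After median-ratio scaling 4 of the 30 were called higher and 4 lower, beside 23.9% and 22.2% of all genes. CHEK1, the replication checkpoint kinase, was at 1.27, 1.31 and 3.20 FPKM in NC24h and at 0.655, 0.301 and 0.537 FPKM in NC36h, a log2 change of -0.91 ± 0.26 (adjusted p = 0.0255 with limma). HIPK2, a kinase that phosphorylates p53, was at 16.7, 19.1 and 17.3 FPKM in NC24h and at 13.1, 12.2 and 12.2 FPKM in NC36h, a log2 change of -0.47 ± 0.08 (adjusted p = 0.0034 with limma). In CHEK1 the NC24h replicate 6 stood at more than double its group's other libraries, and the call was lost without NC36h replicate 4, 5 or 6, with adjusted p up to 0.0864.

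Of the other apoptosis genes, CYCS, which encodes cytochrome c, the respiratory carrier that triggers the apoptosome, was at 191.2, 179.9 and 166.3 FPKM in NC24h and at 236.7, 223.8 and 223.5 FPKM in NC36h. It rose by 0.35 ± 0.07 on the log2 scale (adjusted p = 0.0075 with limma), while CASP9, its partner in the apoptosome, fell and APAF1 did not pass. BAG6, a chaperone that guides tail-anchored membrane proteins, was at 182.3, 191.3 and 182.3 FPKM in NC24h and at 269.9, 293.5 and 291.7 FPKM in NC36h, and rose by 0.62 ± 0.06 (adjusted p = 0.0010 with limma). BAG1, a co-chaperone that binds BCL2, was at 30.3, 26.1 and 19.4 FPKM in NC24h and at 36.7, 35.8 and 33.2 FPKM in NC36h, and rose by 0.49 ± 0.15 (adjusted p = 0.0349 with limma). TRAF2, an adaptor of TNF receptors, was at 26.1, 26.4 and 25.3 FPKM in NC24h and at 31.1, 30.8 and 35.7 FPKM in NC36h, and rose by 0.31 ± 0.07 (adjusted p = 0.0132 with limma). The groups did not overlap for any of these 4 genes. However, BAG1 lost the call without NC24h replicate 5 or NC36h replicate 4, 5 or 6 and with no filter on low values. Its log2 change without NC24h replicate 6 was 0.32.

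On the falling side, GSDME, a gasdermin that forms membrane pores after cleavage by a caspase, was at 2.26, 2.21 and 4.67 FPKM in NC24h and at 0.7004, 0.8594 and 0.8199 FPKM in NC36h, a log2 change of -1.12 ± 0.23 (adjusted p = 0.0078 with limma). TNFRSF1B, the second TNF receptor, was at 1.54, 2.01 and 5.53 FPKM in NC24h and at 0.792, 0.733 and 0.650 FPKM in NC36h, a log2 change of -1.10 ± 0.34 (adjusted p = 0.0332 with limma). In both, NC24h replicate 6 was more than double the other libraries of its group, and without it the log2 change of TNFRSF1B was -0.68. TNFRSF1B lost the call without NC24h replicate 5 or NC36h replicate 4, 5 or 6, with adjusted p up to 0.0868. With no filter on low values its call was lost as well. PDCD10, a vascular scaffold protein named for a link to cell death, was at 22.2, 23.3 and 24.2 FPKM in NC24h and at 13.9, 13.9 and 13.8 FPKM in NC36h, and fell by 0.71 ± 0.06 (adjusted p = 0.0008 with limma). API5, an anti-apoptotic nuclear protein, was at 63.8, 61.5 and 59.6 FPKM in NC24h and at 45.8, 40.0 and 38.4 FPKM in NC36h, and fell by 0.57 ± 0.08 (adjusted p = 0.0022 with limma). For these last 2 genes the libraries of each group lay close together and far from those of the other.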

How the data were processed

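RNA of porcine satellite cells was sequenced by the study on an Illumina instrument as paired-end reads, and the authors deposited 1 table of FPKM values per gene for 6 libraries, already corrected for gene length and library depth. The study's methods name HISAT2 and StringTie for alignment and assembly, whereas the submitters' processing notes name TopHat2, Cufflinks and HTSeq with Sscrofa11.1, and both name the same genome. The highest Ensembl gene number in the table was 31070, against 63546 in the name table used here, so the gene models may be of an older annotation than the one that gave symbols and positions. Of the listed genes without a row, 16 have another identifier in the name table. All columns of the table were used, and 2944 rows were unannotated loci.

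Symbols were attached through the Ensembl identifier. Genes with a mean of at least 1 FPKM over the 6 libraries were fitted on log2(FPKM + 1) with limma 3.58.1 in R 4.3.3 (eBayes with trend, two-sided), with no covariate, and p-values were adjusted by Benjamini-Hochberg over all 14060 genes at a threshold of 0.05. A log2 change is that of FPKM + 1 and understates the change of genes of low level. Errors of a log2 change are standard errors, intervals are at 95%, and a fold change is the ratio of group means in FPKM. Since FPKM keeps the step of 1 fragment, whole fragments were recovered for 19543 of 19543 genes above 0 in at least 3 libraries. These gave depths and fragment counts and served limma voom as an alternative. Counts cover counting error only.

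The genes and lists were chosen with earlier results of these data known. Every gene past the threshold was described with its library values, and so were, whatever their test, BAK1, CASP8, CASP9, XIAP and MDM2, and BCL2, BCL2L1, MCL1 and BAX had they had a row. The others were given by group, interval or range. In each wider list, the 4 genes with the largest rise and the 4 with the largest fall past the threshold were described, and CDKN1A. Some further genes that this rule names are not reported here. The 14 alternatives were another pseudocount (0.1), no filter, a filter at 5 FPKM, median-ratio scaling, quantile normalization, no trend, the replicate number as a block, limma voom and leaving out each library in turn.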

Additional observations from a re-analysis of the deposited data

How the results depend on the processing

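Of the 19 genes called, 11 passed in every one of the 14 alternatives in which they were tested (BBC3 in 13) and 8 lost the call in at least 1. Leaving out 1 library gave 11 to 18 genes past the threshold, 3 or 4 of them higher and 8 to 14 lower, with the lowest counts without NC36h replicate 5 (11 in all, 8 lower). Over all genes the same fits gave 4889 to 7336 calls, and for the wider pathway lists 15 to 26 of a main count of 27, with 17 without NC24h replicate 5, 17 without NC36h replicate 4 and 15 without NC36h replicate 5. Fewer libraries enter each of these fits. Median-ratio scaling gave 7 higher and 9 lower, and quantile normalization 7 higher and 12 lower. Both scalings shift the median of all genes toward 0, and APAF1, ENDOG and TNFRSF1A were the genes gained as higher under both. The sign of BAK1 turned to 0.049 after median-ratio scaling and 0.092 after quantile normalization. MDM2 turned to 0.168 and 0.051 under these scalings and lay between -0.047 and 0.020 when 1 library was left out (0.007 without NC24h replicate 6, 0.012 without NC36h replicate 6), all without passing the threshold. The filter at 5 FPKM tested 26 genes and called 17, since BBC3 and DAPK1 fell below it. Of all genes tested at that filter, 57.2% were called.

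The replicate numbers were not taken to pair the libraries, since same-numbered libraries deviated from their group means with correlations of 0.15, -0.02 and 0.18. With the replicate number as a block, 19 genes passed, 4 higher and 15 lower, of which 18 were shared with the main fit. CFLAR was lost (adjusted p = 0.0690 with limma), AEN was gained, and 7034 genes passed in all. Depth limited genes of low level: CASP8, DAPK1, ENDOG and BBC3 held 270, 390, 459 and 837 fragments over the 6 libraries.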

Other observations

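NC36h replicate 6 stood apart from the other libraries of its group for some stress-responsive genes of the wider lists, which were chosen here after their values were seen. PLK2, a p53-induced polo-like kinase, was at 5.62, 6.18 and 31.8 FPKM in NC36h replicates 4, 5 and 6, against 9.27 to 15.2 FPKM in NC24h. GADD45B, a stress-induced growth arrest gene, was at 8.38, 8.82 and 17.8 FPKM in NC36h, against 5.42 to 8.56 FPKM in NC24h. THBS1 was at 127.5, 139.8 and 234.1 FPKM and TNFRSF12A at 171.2, 201.4 and 260.2 FPKM in the same libraries. PLK2 and GADD45B did not pass the threshold (adjusted p = 0.886 and 0.120 with limma). Without NC36h replicate 6, however, the log2 change of PLK2 went from -0.12 to -0.86, and it was called lower (adjusted p = 0.0205 with limma).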
